A study of Mus musculus with 13 samples.

Results

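The fibroblast and non-fibrillar matrix genes are 38 genes that encode proteoglycans, elastic fibre proteins, matrix glycoproteins, collagens outside the fibrillar class, and surface or cytoskeletal proteins of fibroblasts. A gene was measured where at least 1 probe set of the array named it as the only gene, and it was read by its brightest such probe set over all arrays. This gave 34 of the 38 genes, among 17097 genes in all. Fbn1, Thbs1, Axl and Tagln were not analysed here.

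The arrays hold total RNA of chemically induced squamous carcinomas of mouse skin, 6 from G9a WT mice and 7 from G9a cKO mice. G9a is a histone methyltransferase encoded by Ehmt2, and cKO stands for a conditional knockout. Mice of both groups were treated in the same way from 8 weeks of age: in each application 200 µl of acetone solution with DMBA (0.25 mg/ml), a mutagen, or TPA (0.02 mg/ml), a tumour promoter, was put on the shaved back weekly for 6 weeks, and TPA was then given 2 times a week for at most 20 weeks. The labels name neither the alleles nor the driver of the deletion, so it is not known here in which cells of the tumour G9a was removed, nor whether any mouse gave more than 1 tumour. Of 2 Ehmt2 probe sets, the dimmer in cKO tumours read 8.03 to 8.61 in WT and 5.87 to 6.12 in cKO tumours, and the other read 7.03 to 7.53 and 7.36 to 7.49. A probe set outside the deleted part checks nothing, and where either lies is not known here.

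Fibroblasts build the connective tissue under the epidermis and the stroma of carcinomas. Small leucine-rich proteoglycans such as decorin and lumican bind collagen fibrils and set their spacing, fibrillins and fibulins carry elastin, and glycoproteins such as fibronectin, tenascin C and periostin link cells to the matrix and are abundant in wounds and tumours. Fibroblasts that take on smooth muscle actin, the product of Acta2, are called myofibroblasts. Several of these genes are also used by other cells: keratinocytes and carcinoma cells make fibronectin, tenascin C and TGFBI, and vimentin is found in most cells that are not epithelial.

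Some features of the arrays bear on every value below. Values are log2 expression after RMA, so a difference of 1 is 2-fold, and p-values measure only the spread between these samples. Deviations from the group mean ran opposite in 6 pairs of arrays that adjoin in the deposited table, with correlations over all genes from -0.956 to -0.880 (WT replicates 2 and 4, 6 and 7, 8 and 9, and cKO replicates 2 and 3, 5 and 6, 8 and 9). Every gene was therefore tested with limma without and with a term for these pairs. The words rose and fell are kept for genes with an adjusted p under 0.05 in each of these fits. The term gives each pair its own mean, so its p-values rest on the spread within pairs, where the mirrored deviations lie. It does not remove the mirroring, and the p-values of either fit may not hold. Passing only without the term is therefore no measure of a weaker difference. Among 23 nonspecific control probe sets, cKO and WT arrays differed by -0.31 to 0.08, and their upper quartile, 4.31, is used as a level of background. All 7 keratinocyte markers were above it, with Krt5 at 12.62 ± 0.05 (SD, n = 6) in WT and 12.75 ± 0.03 (SD, n = 7) in cKO tumours. Without the pair term Krt5 was higher in cKO tumours, and Krt6a, Krt14 and Dsp were lower. Of the 34 genes, 8 had means under the background level in both groups (Fbln2, Fbln5, Ogn, Aspn, Cthrc1, Pdgfra, Fap and Cdh11). Among them was Pdgfra, the PDGF receptor that commonly defines fibroblasts, which read 3.85 to 4.09 over all 13 arrays. In whole tumours, fewer cells of a type and less RNA per cell cannot be told apart.

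The group split into genes that rose in cKO tumours and genes that did not, and it held 1 gene that fell. Dcn, Lum, Aspn, Mfap4, Mfap5, Dpt, Col15a1, Thy1 and Acta2 rose, by 0.28 to 1.44 on the log2 scale, and Tnc fell by 0.67. Without the pair term, 14 of 34 genes were higher and 3 lower in cKO tumours, against 25.7% and 20.1% of all genes. With it, 9 were higher and 1 lower, against 14.4% and 10.3%. The groups did not overlap for the 9 that rose and for Fbln2, which was lower (14.1% and 8.86% of all genes). The median difference was 0.17, against 0.02 over all genes. Of the 9 that rose, 5 (Lum, Aspn, Mfap4, Mfap5 and Dpt) had WT means under the background level.

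**Figure D1:**
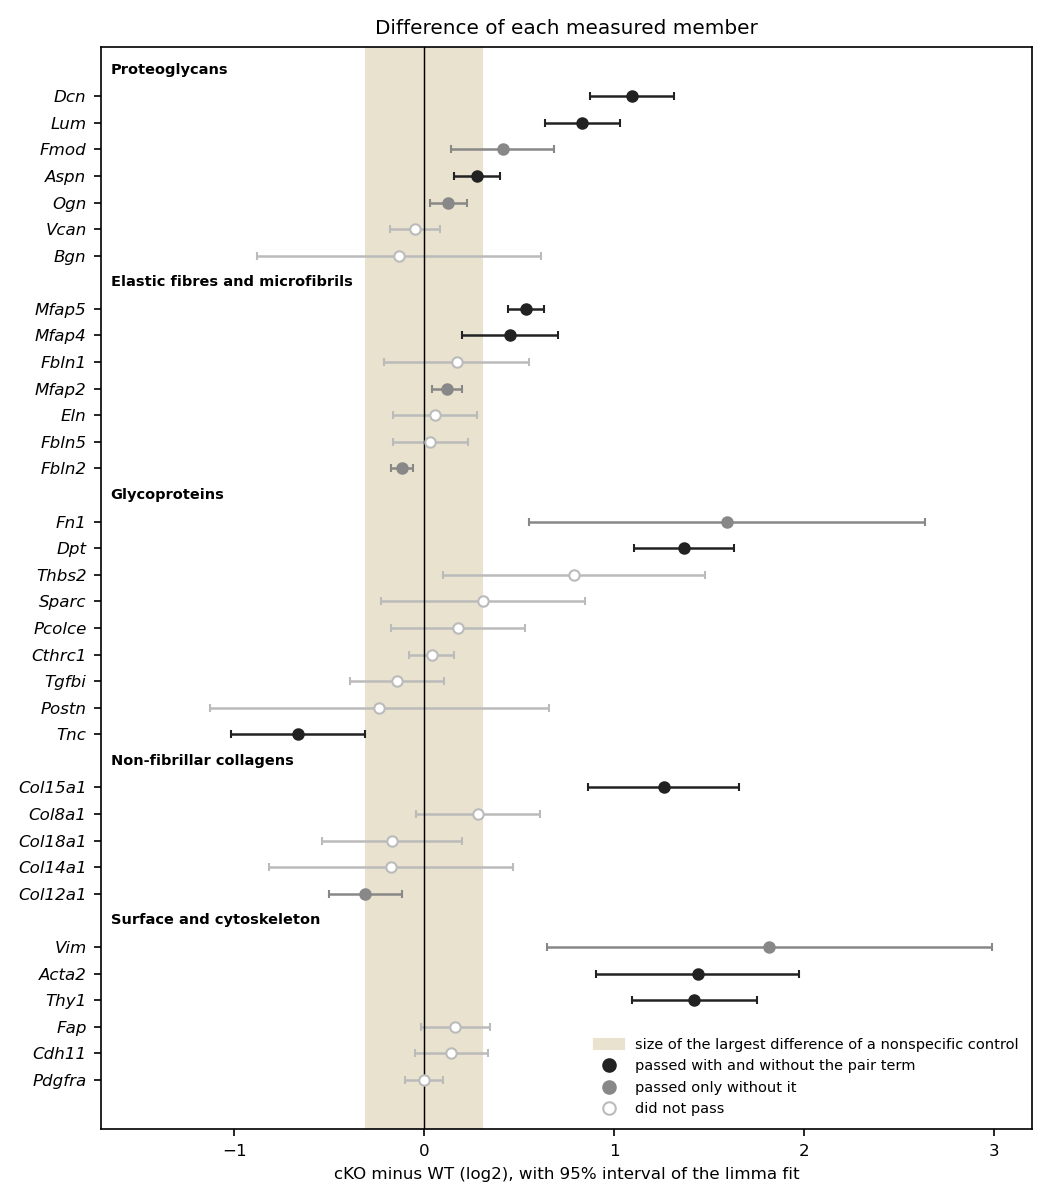
Difference between cKO and WT tumours (log2, horizontal axis) for each of the 34 genes, grouped by role, as points with the 95% interval of the limma fit without the pair term. Black points passed with and without the pair term, grey points only without it, open points did not pass; the shaded band spans the size of the largest control difference (0.31). Acta2, Thy1, Col15a1 and Dcn lie above 1 with intervals clear of the band, the point of Dpt is a measured difference from a WT group at background, while Vim and Fn1 lie further right with wide intervals.

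Among the small leucine-rich proteoglycans and versican, 3 of 7 rose. Dcn, which encodes decorin, read 5.28 to 5.46 (median 5.37) in WT and 6.11 to 6.85 (median 6.45) in cKO tumours. Each of the 7 cKO tumours lay above all WT tumours, and the WT values were close together. The rise was 1.10 ± 0.10 (SE; 2.14-fold; limma adjusted p = 5.4e-06, and 0.00032 with the pair term). Lum, the gene of lumican, read 3.64 to 4.03 (median 3.76) in WT and 4.43 to 4.88 (median 4.55) in cKO tumours. It was under the background level on all WT arrays and above it on all 7 cKO arrays, with a rise of 0.83 ± 0.09 (limma adjusted p = 1.9e-05). Aspn, which encodes asporin, rose by 0.28 ± 0.06 (limma adjusted p = 0.0014), from 3.75 to 4.02 (median 3.87) in WT to 4.03 to 4.32 (median 4.14) in cKO tumours. This rise was smaller than the largest control difference and lay at background.

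Fmod, the gene of fibromodulin, had a higher mean in cKO tumours and a wider spread in WT tumours, which was not tested. It read 5.78 to 6.61 (median 6.17) in WT and 6.54 to 6.63 (median 6.61) in cKO tumours, so the WT range reached up to the narrow cKO range. The SD was 0.35 in WT and 0.04 in cKO tumours, and the difference of 0.41 passed limma only without the pair term (adjusted p = 0.017, and 0.094 with it). Ogn, which encodes osteoglycin, read 3.97 to 4.12 (median 4.04) in WT and 4.07 to 4.33 (median 4.16) in cKO tumours. Its difference of 0.13 passed only without the pair term (adjusted p = 0.033 and 0.16) and was not called after quantile normalization (0.09, adjusted p = 0.11), and another Ogn probe set differed by -0.06 (adjusted p = 0.23). Bgn, the gene of biglycan, and Vcan, that of the large proteoglycan versican, did not pass. Bgn had differences of -0.13 and 0.09 on 2 probe sets, with WT values spread from 7.00 to 9.05 and cKO values from 6.85 to 8.31, and Vcan differed by -0.05 (95% interval -0.18 to 0.08).

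Of 7 elastic fibre and microfibril genes measured, 2 rose, both of them microfibril-associated proteins near background in WT tumours. Mfap5, which encodes a small glycoprotein that binds fibrillin, read 4.20 to 4.41 (median 4.30) in WT and 4.75 to 4.99 (median 4.82) in cKO tumours. With no overlap and SDs of 0.08 in either group, its rise was 0.54 ± 0.04 (limma adjusted p = 1.9e-06, and 0.0012 with the pair term). Its other probe set gave 0.49. Mfap4, the gene of a fibrinogen-related microfibril protein, read 4.21 to 4.31 (median 4.29) in WT and 4.51 to 5.38 (median 4.66) in cKO tumours. It rose by 0.45 ± 0.12 (limma adjusted p = 0.0068, and 0.041 with the pair term), and the highest value, that of cKO replicate 6, stood apart from the next, 4.72. Without that array the difference was 0.34 (limma adjusted p = 8.4e-05). With the pair term after quantile normalization the call of Mfap4 was lost (limma adjusted p = 0.057).

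The genes of elastin and the fibulins did not rise. Fbln1, which encodes a fibulin of basement membranes and elastic fibres, had one of the brightest probe sets, from 10.08 to 10.93 (median 10.51) in WT and from 10.32 to 11.03 (median 10.75) in cKO tumours. The groups overlapped almost fully, with a difference of 0.17 (95% interval -0.21 to 0.55), and 2 other probe sets gave -0.19 and -0.18. Eln differed by 0.05 (limma adjusted p = 0.69) and by 0.20 on a second probe set (adjusted p = 0.0090, and 0.074 with the pair term), and Fbln5, an elastin-binding fibulin, by 0.03 (adjusted p = 0.79). Fbln2 was not above the median of the controls on any cKO array, from 3.37 to 3.47 (median 3.39) against 3.48 to 3.59 (median 3.52) in WT, so its difference of -0.12 (adjusted p = 0.0045, and 0.075 with the pair term) was read at background. Mfap2, a relative of Mfap5, read 6.30 to 6.45 (median 6.35) in WT and 6.37 to 6.55 (median 6.50) in cKO tumours. Its difference of 0.12 was smaller than the largest control difference and passed only without the pair term (adjusted p = 0.016 and 0.094).

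Of 9 matrix glycoproteins and their modifiers, Dpt rose and Tnc fell. Dpt, which encodes dermatopontin, a dermal protein that binds decorin and collagen, read 3.10 to 3.45 (median 3.30) in WT and 4.45 to 5.27 (median 4.54) in cKO tumours. It was not above the control median on any of the 6 WT arrays, so only a bound can be given: taking the WT arrays at the upper quartile of the controls, the cKO level was higher by at least 1.28-fold (measured means 3.30 and 4.67, limma adjusted p = 3.5e-06). The highest value, from cKO replicate 6, stood apart here as well. Tnc, the gene of tenascin C, read 9.72 to 10.56 (median 10.13) in WT and 8.99 to 9.88 (median 9.58) in cKO tumours. The ranges overlapped, and the fall was 0.67 ± 0.16 (limma adjusted p = 0.0051, and 0.033 with the pair term). After quantile normalization the difference was -0.52, and the fit with the pair term no longer called it (limma adjusted p = 0.067). A second, dimmer Tnc probe set had a difference of -1.68, from 6.11 ± 0.73 (SD) to 4.43 ± 0.31 (SD; limma adjusted p = 0.00039, and 0.011 with the pair term).

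Fn1 and Thbs2 had large mean differences and large spread. Fn1, the gene of fibronectin, read 4.77 to 7.31 (median 5.80) in WT and 6.06 to 8.62 (median 7.50) in cKO tumours. The groups overlapped, with 4 of 7 cKO tumours above the highest WT tumour, and the difference of 1.59 ± 0.48 passed limma only without the pair term (adjusted p = 0.016 and 0.095). Thbs2, which encodes thrombospondin 2, a matricellular protein that restrains vessel growth, read 6.71 to 7.63 (median 7.15) in WT and 7.14 to 9.08 (median 8.00) in cKO tumours. It missed the threshold (0.79 ± 0.32, limma adjusted p = 0.059), with 0.81 on a second probe set (adjusted p = 0.064), and passed after quantile normalization (0.91, adjusted p = 0.041) without the pair term.

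The remaining glycoproteins did not pass. Sparc, the gene of osteonectin, was the brightest of the 34 genes and read 10.05 to 11.08 (median 10.77) in WT and 10.05 to 11.55 (median 11.13) in cKO tumours. Its difference was 0.31 (95% interval -0.23 to 0.85), with 0.48 on another probe set. Postn, which encodes periostin, varied widely within each group, from 8.15 to 10.28 in WT and from 7.54 to 9.99 in cKO tumours, and differed between them by -0.24 (95% interval -1.13 to 0.66). Tgfbi, its relative, differed by -0.14 (adjusted p = 0.33). Pcolce, an enhancer of procollagen processing, and Cthrc1, a secreted protein of activated fibroblasts, differed by 0.18 (adjusted p = 0.40) and 0.04 (adjusted p = 0.58).

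Of 5 collagens outside the fibrillar class, only Col15a1 rose. It encodes a collagen of basement membrane zones, abundant around vessels and muscle, and read 4.23 to 5.44 (median 4.68) in WT and 5.87 to 6.40 (median 5.99) in cKO tumours. The groups were apart and the cKO tumours close together, with a rise of 1.26 ± 0.18 (2.40-fold; limma adjusted p = 0.00014, and 0.0072 with the pair term). Col18a1, its close relative and the source of endostatin, read 9.92 to 10.41 (median 10.10) in WT and 9.46 to 10.50 (median 9.95) in cKO tumours, with differences of -0.17 and -0.15 on 2 probe sets (adjusted p = 0.44 each). Col12a1, a collagen that sits on the surface of fibrils, read 6.78 to 7.26 (median 7.01) in WT and 6.54 to 6.89 (median 6.74) in cKO tumours. Its difference of -0.31 passed only without the pair term (limma adjusted p = 0.013 and 0.077), and after quantile normalization its adjusted p was 0.052.

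Col14a1 and Col8a1 varied more among cKO than among WT arrays. Col14a1, another fibril-surface collagen, read 4.73 to 5.29 (median 4.93) in WT and 3.99 to 6.09 (median 4.63) in cKO tumours, so cKO tumours lay on both sides of the WT range. The difference was -0.17 (95% interval -0.82 to 0.47). Col8a1, a short-chain collagen of vessels and wounds, read 6.46 to 6.74 (median 6.57) in WT and 6.39 to 7.49 (median 6.85) in cKO tumours, and differed by 0.28 (limma adjusted p = 0.14).

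Among 6 genes of the fibroblast surface and cytoskeleton, Thy1 and Acta2 rose. Thy1, which encodes a surface glycoprotein of fibroblasts and, in mice, of T cells, read 5.41 to 6.30 (median 5.71) in WT and 6.78 to 7.59 (median 7.09) in cKO tumours. With no overlap, it rose by 1.42 ± 0.15 (2.68-fold; limma adjusted p = 1.6e-05, and 0.00095 with the pair term). Acta2, the gene of smooth muscle actin, read 7.08 to 8.53 (median 7.70) in WT and 8.60 to 9.78 (median 9.12) in cKO tumours. The lowest cKO tumour lay just above the highest WT tumour, and the rise was 1.44 ± 0.25 (2.71-fold; limma adjusted p = 0.00047, and 0.014 with the pair term). A second Acta2 probe set, close to background, differed by 0.18 (adjusted p = 0.12).

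Vim, the gene of vimentin, had the largest mean difference of the 34 genes and the largest spread in WT tumours. It read 4.76 to 7.84 (median 6.31) in WT and 6.86 to 9.00 (median 8.12) in cKO tumours. WT replicates 4, 7 and 8 lay at 7.14 to 7.84 and overlapped the cKO range, whereas WT replicates 2, 6 and 9 lay at 4.76 to 5.48. Each of these sets takes 1 array from every mirrored WT pair, so the split cannot be told apart from the mirroring. The difference of 1.82 ± 0.54 passed only without the pair term (limma adjusted p = 0.015 and 0.082). A second Vim probe set passed with and without it (1.90, limma adjusted p = 0.0011 and 0.020), and the third gave 1.98 (adjusted p = 0.011 and 0.068).

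The surface proteins Fap, Cdh11 and Pdgfra, which mark fibroblasts in many tissues, did not pass and were at background. Fap, a serine protease of activated fibroblasts, read 3.57 to 4.03 (median 3.73) in WT and 3.72 to 4.14 (median 3.93) in cKO tumours. Cdh11, a mesenchymal cadherin, read 3.56 to 3.93 (median 3.71) and 3.70 to 4.25 (median 3.85), and its second probe set differed by -0.18, less than the largest control difference (limma adjusted p = 0.00064, and 0.028 with the pair term). Pdgfra differed by less than 0.01 (95% interval -0.10 to 0.10). Such values do not show that the genes were silent, since a probe set can read its transcript poorly.

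**Figure D2:**
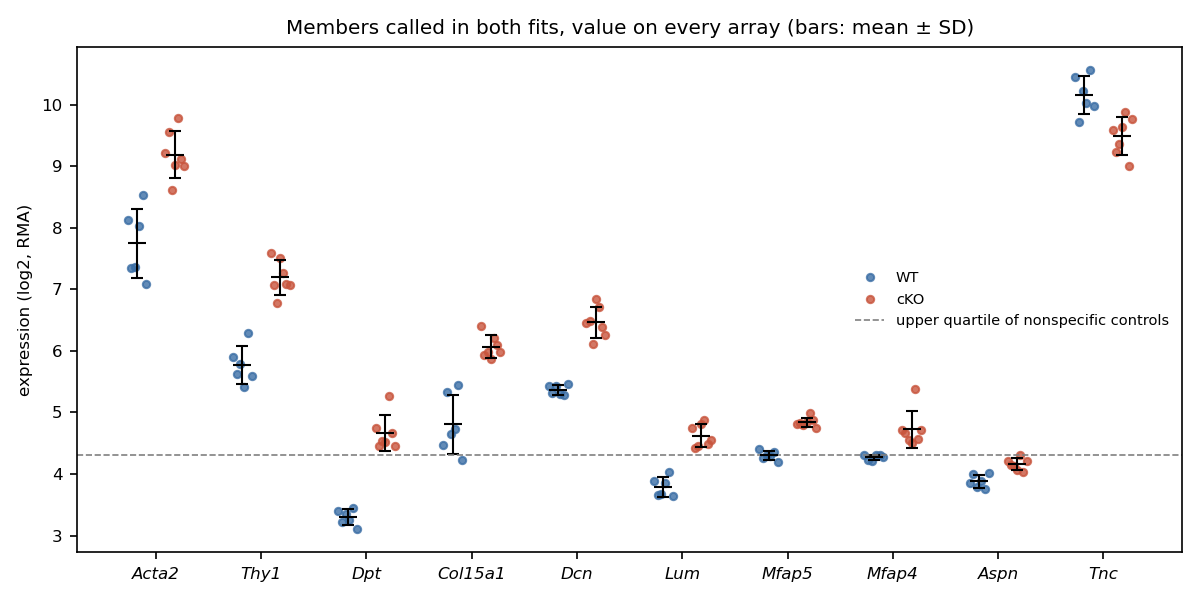
Expression (log2, vertical axis) on every array for the 10 genes that passed with and without the pair term, WT in blue (n = 6) and cKO in red (n = 7), with bars for mean ± SD and a dashed line at the upper quartile of the nonspecific controls (4.31). The groups do not overlap for the 9 genes that rose, of which Lum, Dpt, Mfap4, Mfap5 and Aspn lie near the line, and they overlap for Tnc.

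The first 7 genes by probe set brightness were Sparc, Fbln1, Tgfbi, Col18a1, Tnc, Postn and Acta2, of which Acta2 rose and Tnc fell. Brightness of different probe sets is no measure of which gene is more abundant. The 18 genes with several probe sets had 25 others, of which 17 differed in the same direction as the probe set used and 8 in the opposite one. The opposite ones included 1 that was called, that of Cdh11.

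Relatives within a family were compared inside each array, which asks whether the genotype difference of one gene exceeds that of the other. Of 10 such comparisons 9 could be made, since Thbs1 was not measured, and 4 passed an exact permutation test over the 1716 splits of the arrays (two-sided, Benjamini-Hochberg over the 9). The test treats arrays as exchangeable, which the mirrored pairs do not guarantee. Mfap5 exceeded Mfap2 by 0.42 (exact p = 0.00058, the smallest these splits can give; adjusted p = 0.0052), and no array overlapped between the groups. Col15a1 exceeded Col18a1 by 1.43 (exact permutation p = 0.0012, adjusted p = 0.0052), with a difference of 1.26 against -0.17. The Bgn difference was below that of Dcn by 1.23 (a value of -1.23, exact permutation p = 0.0047, adjusted p = 0.014), and Aspn exceeded Ogn by 0.15 (exact permutation p = 0.0070, adjusted p = 0.016). Aspn and Ogn had means under the background level in both groups, so this value compares probe sets at background.

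The other comparisons of relatives did not pass. Lum exceeded Fmod by 0.42 (exact permutation p = 0.057, adjusted p = 0.10), which became 0.55 (adjusted p = 0.023) without WT replicate 8. Postn and Tgfbi (-0.09), Col14a1 and Col12a1 (0.13), Fbln2 and Fbln1 (-0.29) and Fbln5 and Fbln1 (-0.14) had exact permutation adjusted p between 0.28 and 0.83.

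**Figure D3:**
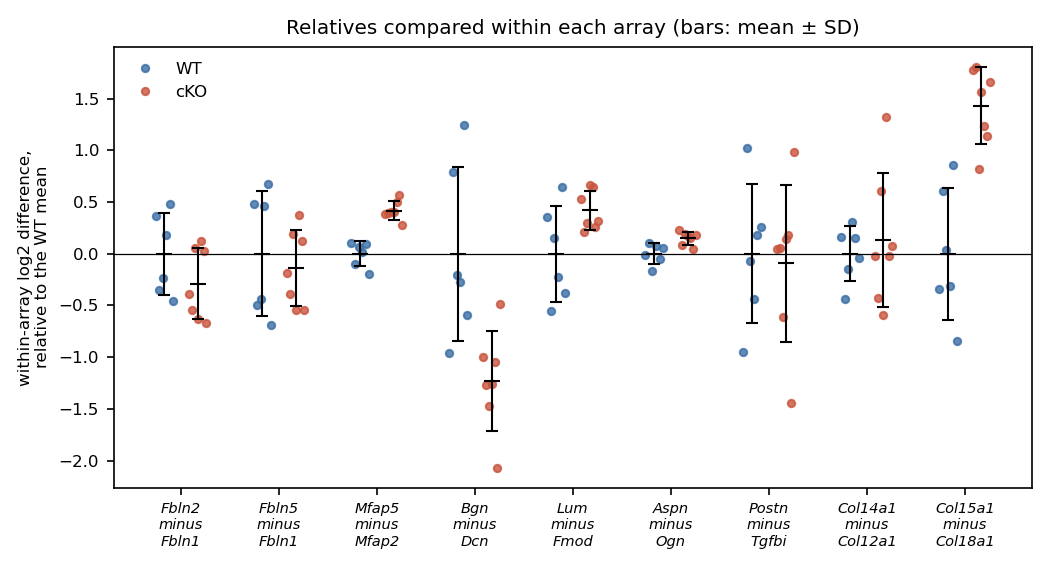
Within-array log2 difference between 2 related genes, set to 0 at the WT mean (vertical axis), for the 9 comparisons, with a point per array (WT blue, n = 6; cKO red, n = 7) and bars for mean ± SD. The cKO arrays lie apart from the WT arrays for Mfap5 minus Mfap2, and mostly above for Col15a1 minus Col18a1 and below for Bgn minus Dcn.

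The arrays within a group differed among themselves in these genes as well. In the cKO group, replicate 6 held the highest value for 19 of the 34 genes and the lowest for 2. In the WT group, replicate 8 held the highest for 16 and replicate 9 the lowest for 12; these are arrays of 1 mirrored pair. Fn1 values show the size of it: cKO replicates 3, 6 and 8 read 8.53, 8.62 and 8.23, whereas replicates 2, 5 and 9 read 6.06, 6.62 and 6.84. Either set takes 1 array from each mirrored cKO pair, so differences between tumours cannot be told apart here from the mirroring. Replicates 3, 6 and 8 were the 3 highest cKO arrays for 8 genes (Eln, Fbln2, Fn1, Sparc, Pcolce, Col12a1, Col14a1 and Col18a1) and the 3 lowest for Fbln1, Postn and Tgfbi. Without cKO replicate 6, 13 genes were higher and 3 lower, and without WT replicate 8 the counts were 14 and 3. Col14a1 in cKO tumours rested on this array most: replicate 6 read 6.09 and the next, replicate 3, 5.41.

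**Figure D4:**
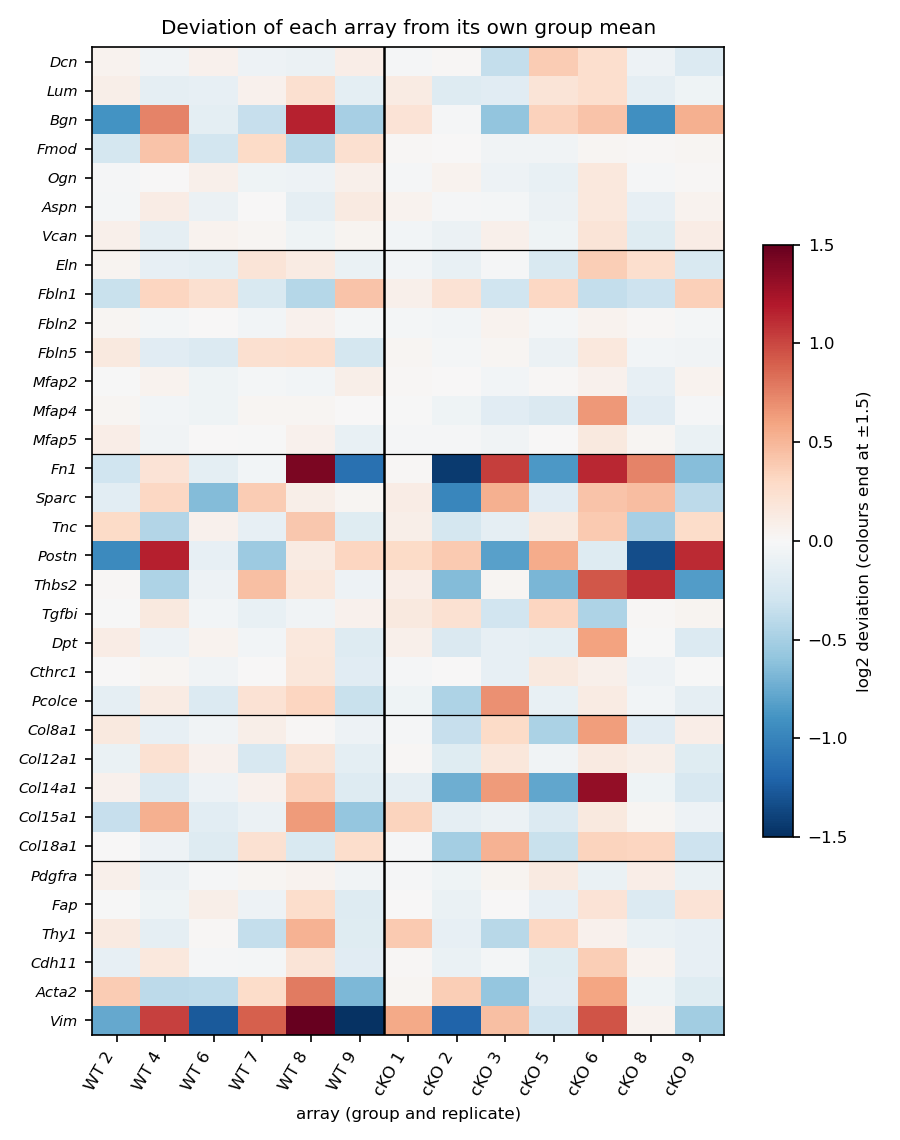
Deviation of every array from the mean of its own group (colour, log2) for the 34 genes (rows, by role) on the 6 WT and 7 cKO arrays (columns). Fn1, Postn, Bgn and Vim vary most, the arrays of a mirrored pair mostly carry opposite colours, and cKO replicate 6 is red for most genes but blue for Fbln1, Postn, Tgfbi and Pdgfra. Colours end at a deviation of 1.5.

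Promoter sequences are shown for the 2 genes with the largest mean differences that have a RefSeq promoter entry, Vim and Acta2, and for the gene that fell, Tnc. Of the 38 genes, 24 have an entry. Each sequence runs from 250 bases before to 50 bases after the first listed start, in GRCm38.p6, and is given 5′ to 3′ on the strand of the gene, at chr2:13574061-13574360 (plus strand) for Vim, chr19:34255324-34255623 (minus strand) for Acta2 and chr4:64046966-64047265 (minus strand) for Tnc. Capitals mark the TATA-box letters TATANA and the GC-box letters GGGCGG, searched on both strands.
Vim: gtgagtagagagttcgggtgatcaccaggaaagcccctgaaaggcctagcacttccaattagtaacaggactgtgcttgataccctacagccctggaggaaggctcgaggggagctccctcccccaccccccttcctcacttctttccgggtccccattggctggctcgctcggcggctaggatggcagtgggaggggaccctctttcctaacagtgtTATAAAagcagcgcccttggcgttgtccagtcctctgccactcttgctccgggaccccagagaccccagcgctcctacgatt
Acta2: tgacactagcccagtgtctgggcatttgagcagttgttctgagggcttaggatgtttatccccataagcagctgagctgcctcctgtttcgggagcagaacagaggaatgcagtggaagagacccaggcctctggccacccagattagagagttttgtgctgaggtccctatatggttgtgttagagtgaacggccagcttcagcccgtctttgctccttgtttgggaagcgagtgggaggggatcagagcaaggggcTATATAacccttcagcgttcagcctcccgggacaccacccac
Tnc: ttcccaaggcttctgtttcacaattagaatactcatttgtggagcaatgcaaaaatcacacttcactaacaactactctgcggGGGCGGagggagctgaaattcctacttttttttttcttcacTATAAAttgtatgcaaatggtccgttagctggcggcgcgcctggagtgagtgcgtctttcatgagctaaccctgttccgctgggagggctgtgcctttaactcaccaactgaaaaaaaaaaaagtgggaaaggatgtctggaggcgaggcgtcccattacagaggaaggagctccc
In these windows Vim and Tnc hold TATAAA, at position -32 from the start for Vim and -126 for Tnc, where GGGCGG lies further upstream, and Acta2 holds TATATA at position 9. The letters TATANA occur in 24.7% and GGGCGG in 35.7% of all 32851 windows of 300 bases. Of the 22 measured genes with an entry, 7 hold the first and 10 the second at the first listed start. None of the 4 that rose (Dpt, Aspn, Col15a1 and Acta2) holds GGGCGG, and they have 3 to 8 CG dinucleotides, where the median of all windows is 7. A match of letters is a description and not a binding site.

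Genes of the same kinds that are not among the 38 went both ways. Of 67 measured, 20 were higher and 9 lower without the pair term, against 25.7% and 20.1% of all genes. With it, 13 were higher and 2 lower, against 14.4% and 10.3%. Their median difference was 0.04. Counts for each list below are without the pair term, to be read against 25.7% and 20.1%. Among 18 other fibroblast markers 8 were higher and 1 lower: Dpp4, a marker of a dermal fibroblast lineage, rose by 0.43, Pdgfrb by 0.57 and Lrrc15, a gene of cancer-associated myofibroblasts, by 1.12, while Clec3b fell by 0.39. The WT mean of Dpp4, 4.29, was just under the background level. Of 10 genes listed with other proteoglycans, not all of which encode one (Hapln1 and Srpx do not), 6 were higher and 0 lower. Kera, Chad and Srpx rose by 0.22, 0.18 and 0.32, and Hapln1 had 0.27 (adjusted p = 0.0043, and 0.051 with the pair term). Kera and Srpx read under the background level on all 13 arrays, and Kera, Chad and Hapln1 differed by less than the largest control difference. Of 12 other elastic fibre genes 1 was higher and 4 lower: Adamts10 fell by 0.18, also less than the largest control difference, and Ltbp1, which tethers latent TGF-beta to the matrix, had -1.34 (adjusted p = 0.0048, and 0.051 with the pair term), Fbn2 -0.30 and Emilin1 0.12 (0.068 and 0.11 with the pair term).

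Of 17 other matricellular genes 4 were higher and 2 lower. Thbs3, Tnxb and Tnn rose by 0.63, 0.44 and 0.78, and the last 2 encode tenascins, the family of Tnc, which fell. Thbs3 was under the background level on all WT arrays. Ccn5 had 0.13 (adjusted p = 0.0083, and 0.091 with the pair term). Of 10 other collagens outside the fibrillar class 1 was higher and 2 lower: Col13a1 rose by 0.40, and Col16a1 and Col10a1 had -0.53 and -0.13 (adjusted p of 0.054 and 0.069 with the pair term), while Col23a1 did not pass (0.55, adjusted p = 0.13). Among 10 fibrillar and type VI collagens, which share fibroblasts as a source, 6 were higher and 0 lower, with a median of 0.83.

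Markers of other cell types were counted without the pair term, to be read against 25.7% higher and 20.1% lower among all genes, and their part in the differences above was not tested. Of 6 endothelial markers 4 were higher, and their mean level per array was 4.27 to 5.66 in WT and 5.70 to 6.31 in cKO tumours, beside Col15a1, Vim and Sparc, genes that vessels also use. Of 6 smooth muscle and pericyte markers measured, Pdgfrb and Myh11 rose by 0.57 and 0.55 and Rgs5 fell by 1.43, with mean levels of 5.23 to 5.73 in WT and 5.35 to 5.47 in cKO tumours, beside Acta2. Of 6 macrophage markers 2 were higher (mean levels of 4.62 to 4.83 in WT and 4.88 to 5.40 in cKO tumours), beside Fn1 and Vim. Of these, the defining marker Adgre1 had means of 3.93 and 4.28, under the background level, and Csf1r differed by 0.26, less than the largest control difference. Of 5 T cell markers measured, Cd3g and Cd8a rose and Cd3d fell, beside Thy1, and Cd8a and Cd3d differed by less than the largest control difference. Of 5 skeletal muscle markers 1 was higher (Acta1), of 3 adipocyte markers 1 was higher (Adipoq) and 1 lower (Lep), and of 2 Schwann cell markers 1 was higher (Sox10). Each of these genes differed by less than the largest control difference, and Adipoq and Lep read under the background level on all arrays. Of 7 keratinocyte markers 1 was higher and 3 lower, at 10.61 to 11.30 in WT and 10.37 to 11.65 in cKO tumours, beside Tnc, Tgfbi and Fn1. Krt5 rose by 0.13 and Krt6a fell by 0.37. Krt14 and Dsp had -0.12 and -0.20 (limma adjusted p = 0.19 and 0.052 with the pair term). Krt5, Krt14 and Dsp differed by less than the largest control difference.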

How the data were processed

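Tumour RNA was amplified before it was labelled with biotin, per the labels' protocols. Per the submitters' processing notes, the authors made the deposited log2 values per probe set with RMA. Its version, and what may have followed it, are unknown here. Of 45141 probe sets, 28898 had 1 gene symbol in the platform annotation, and 28689 of these were found by gene number in GRCm38.p6. Groups and replicate numbers came from the sample titles.

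Differences (cKO minus WT) were fitted over all 17097 genes in R 4.3.3 by lmFit and eBayes of limma 3.58.1, two-sided, with Benjamini-Hochberg adjustment. The pair term leaves 6 residual degrees of freedom. All 38 genes are named, and of companion lists up to 4 by smallest p. T cell markers were added last. Members, lists and tests were chosen with earlier results of these data known. Alternatives were other normalizations, filters, probe set means, a trended prior, the replicate number as a block and each array left out. The number of arrays limits the precision. Figures used matplotlib 3.10.9.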

Additional observations from a re-analysis of the deposited data

Results flagged for a closer look

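In 3 of 68 groups of values (34 genes in 2 groups) a single array stood apart from the rest by more than Dixon's limit at 95%, where chance alone marks about 1 in 20. All 3 were the highest value of the same array, cKO replicate 6: Mfap4 at 5.38 (next highest 4.72), Dpt at 5.27 (next highest 4.75) and Cdh11 at 4.25 (next highest 3.93). This array belongs to the mirrored pair of cKO replicates 5 and 6, so a difference between tumours cannot be told apart here from the mirroring. Without this array the difference of Mfap4 was 0.34 (limma adjusted p = 8.4e-05). Dpt, whose WT arrays were not above the control median, kept its call (limma adjusted p = 3.1e-07), and Cdh11 stayed uncalled at 0.08 (limma adjusted p = 0.36).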

How the results depend on the processing

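The counts of called genes among the 34 depended on how neighbouring arrays were treated. Of all genes, 7830 were called without a further term. With the neighbouring-pair term 4228 were called, and 9 of the 34 were higher and 1 lower. After quantile normalization as well, 3887 were called, with 9 higher and 1 lower that were not all the same genes: Tnc and Mfap4 lost their call (limma adjusted p = 0.067 and 0.057), and Fbln2 and Mfap2 had adjusted p of 0.024 and 0.040. With the replicate number as a block, over the 4 numbers that both groups share, 3055 were called, with 9 higher and 1 lower, and of the 10 genes named as risen or fallen Mfap4 and Tnc lost their call (limma adjusted p = 0.087 and 0.093). Fmod (higher) and Col12a1 (lower) were called in this fit (limma adjusted p = 0.035 and 0.023). The replicate numbers do not pair the samples, since same-numbered arrays had correlations of deviations between -0.30 and 0.05. With genes under the 50th percentile left out, which leaves 18 of the 34, 3453 were called, with 7 of the 34 higher. Without each array in turn, 7016 to 7718 genes were called, 13 to 15 of the 34 were higher and 3 lower, and their median difference was 0.14 to 0.20. Median centring left 13 higher and quantile normalization 2 lower.

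Directions turned only for genes or comparisons that were never called. Fbln5 had -0.00023 after quantile normalization, with and without the pair term, and Vcan, Fbln1 and Cdh11 had 0.0073, -0.067 and -0.017 as means over probe sets. Leaving out single arrays took Pdgfra from -0.023 to 0.016, Bgn from -0.31 to 0.097, Fbln5 from -0.019 to 0.084, Eln from -0.0059 to 0.095, Postn minus Tgfbi from -0.28 to 0.13 and Col14a1 minus Col12a1 from -0.063 to 0.26. The mean over probe sets gave 0.089 for Fbln5 minus Fbln1. Of 9 comparisons of relatives, 4 passed under quantile normalization, with probe set means and without single arrays, except that 5 passed without WT replicate 8. Leaving out arrays ended the call of Ogn (WT replicates 2, 7 or 8, cKO replicates 2, 6 or 9) and gave calls to Thbs2 (cKO replicates 2, 5 or 9) and Fap (WT replicate 8). The cause was not tested.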
